A study of Mus musculus with 12 samples.

Results

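The insulin-like growth factor (IGF) axis was followed through 10 genes of the mandibular condylar fibrocartilage, the fibrous and cartilaginous layer on the condyle of the lower jaw. The genes were chosen by symbol for their place in the axis, out of 23284 in the count table, with earlier results of these data known. All 10 passed the expression filter that left 14832 genes to test. They were the ligands Igf1 and Igf2, the receptor Igf1r, the binding proteins Igfbp3, Igfbp4, Igfbp5, Igfbp6 and Igfbp7, the protease Pappa and its inhibitor Stc2. RNA sequencing of polyadenylated RNA had been carried out on all cells of the tissue, in 12 libraries from female C57BL/6 mice aged 17 weeks. Every mouse, controls included, had been ovariectomized at 16 weeks, which removes the main source of estrogen, and carried a pellet for 1 week. The 4 groups were wild type with placebo (WT placebo, 2 libraries), wild type with 17β-estradiol (WT E2, 3 libraries), mice labelled ERalphaKO with placebo (4 libraries) and ERalphaKO with E2 (3 libraries). The E2 pellet held 0.01 mg for release over 60 days. ERalphaKO stands for loss of estrogen receptor alpha, the product of Esr1, and its allele is not stated in the labels. The design asks whether the action of E2 on this tissue runs through that receptor. The labels do not say whether each library came from 1 mouse or from several, so p-values measure the spread between these libraries.

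IGF1 and IGF2 are secreted peptides that signal through the receptor tyrosine kinase encoded by Igf1r and promote growth, survival and matrix production in cartilage. Most IGF outside cells is held by IGF-binding proteins, which keep it from the receptor until a protease frees it. PAPP-A, the product of Pappa, is such a protease and acts on binding proteins 4 and 5 in particular, and stanniocalcin 2, from Stc2, binds PAPP-A and blocks it. Igf1 is a transcriptional target of growth hormone through STAT5 and, in some tissues such as the uterus, of E2.

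Sequences before the start sites of 3 members are shown because these members had the largest differences between E2 and placebo in WT. They were taken from the RefSeq promoter table on GRCm38.p6, which is not the build of the authors' alignment, and 9 of the 10 members had an entry. The estrogen response element was searched as GGTCANNNTGACC, its half-site as AGGTCA, on both strands, and a half-site can lie within a full element. Capitals mark the half-site, which reads TGACCT on the other strand. The Igf1 stretch is 30 bases at chr10:87860938-87860967 on the plus strand, within an annotated exon of Igf1, and the half-site begins 161 bases before the RefSeq start. The Igf2 window is chr7:142666817-142667066 on the minus strand, directly before the outermost annotated start of the gene, with the half-site beginning 234 bases before it. Of the 4 Igf2 windows, only the 1 shown holds a half-site. The Stc2 window is chr11:31370062-31370311 on the minus strand, and 13 of its 250 bases are annotated as Stc2 exon.
Igf1: ctcagggaagagAGGTCAgctgcctagagc
Igf2: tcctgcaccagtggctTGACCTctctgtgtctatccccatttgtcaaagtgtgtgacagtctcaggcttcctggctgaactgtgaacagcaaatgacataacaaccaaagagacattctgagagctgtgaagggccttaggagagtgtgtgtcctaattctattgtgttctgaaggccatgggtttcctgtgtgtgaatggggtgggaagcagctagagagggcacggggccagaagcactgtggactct
Stc2: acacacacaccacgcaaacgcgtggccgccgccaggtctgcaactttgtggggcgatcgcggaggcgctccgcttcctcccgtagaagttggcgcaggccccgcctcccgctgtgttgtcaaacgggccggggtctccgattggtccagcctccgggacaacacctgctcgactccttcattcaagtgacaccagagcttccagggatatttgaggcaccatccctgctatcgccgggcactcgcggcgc
In all, 12 windows of 250 bases before a RefSeq start were searched for the 9 members. For Igf1r and Igfbp6 that start lay upstream of the gene start annotated in GENCODE M21. The bases after it were not found in an annotated transcript of these 2 genes, so their windows may not be promoters in that annotation. A half-site stood in 3 of them (25.0%), those of Igf1, Igf1r and 1 of the 4 windows of Igf2, against 14.0% of 32851 promoter windows of the same length. The full element was in 0 of the 12 windows and in 0.0639% of all promoters. An AP-1 site, searched as TGANTCA, was in 1 window, before Igf1, against 6.75% of all promoters. The GC box GGGCGG was in 4 windows (33.3%), before Igf1r, Igf2 and Igfbp7, against 32.7% of all. The TATA box TATAAA was in 2 windows (16.7%), before Igfbp4 and Igfbp6, against 12.4% of all. Such a match is a run of letters and does not show that a factor binds there. The Stc2 window held none of these motifs.

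The libraries held 9.70e+06 to 2.88e+07 counts, and the least counted member, Stc2, had 90 to 1198 counts per library. All 10 fibrocartilage markers examined, among them Col2a1, Acan, Comp and Prg4, had counts in every group. Esr1 lay at 8.52 to 17.5 CPM (counts scaled to a library of 1000000) in the 5 WT libraries and at 3.65 to 5.78 CPM in the 7 ERalphaKO libraries. The tissue came with cells from its surroundings. Summed over 10 markers, skeletal muscle ranged from 5.34 to 4534 CPM, and summed over 9 markers, granulocytes reached 15632 CPM in ERalphaKO placebo replicate 3 and 6439 CPM in ERalphaKO E2 replicate 1. In WT E2 replicate 3 the summed osteoblast (10446 CPM), macrophage (1119.5 CPM) and endothelial (463.6 CPM) markers were the highest of the 12 libraries.

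Per kilobase of exon, the binding proteins were the most abundant transcripts of the axis in this tissue. Median levels over the 12 libraries were 439 CPM per kilobase for Igfbp5, 394 for Igfbp7, 149 for Igfbp6, 57.4 for Igfbp4 and 25.3 for Igfbp3. Igf1 followed at 8.53, Igf2 at 7.03 and Igf1r at 4.87 CPM per kilobase, and Pappa (2.47) and Stc2 (2.08) stood last. The ranges over libraries of neighbours in this order overlapped for Igfbp5 and Igfbp7, for Igf1 and Igf2, for Igf2 and Igf1r, for Igf1r and Pappa, and for Pappa and Stc2. Those of Igfbp7 and Igfbp6, of Igfbp6 and Igfbp4, of Igfbp4 and Igfbp3, and of Igfbp3 and Igf1 did not overlap: the lowest Igfbp4 value was 45.0 and the highest Igfbp3 value 41.4 CPM per kilobase. Stc2 varied most of all members, by 11.3-fold between its lowest and its highest library, whereas Igfbp4 varied by 1.60-fold.

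**Figure D1:**
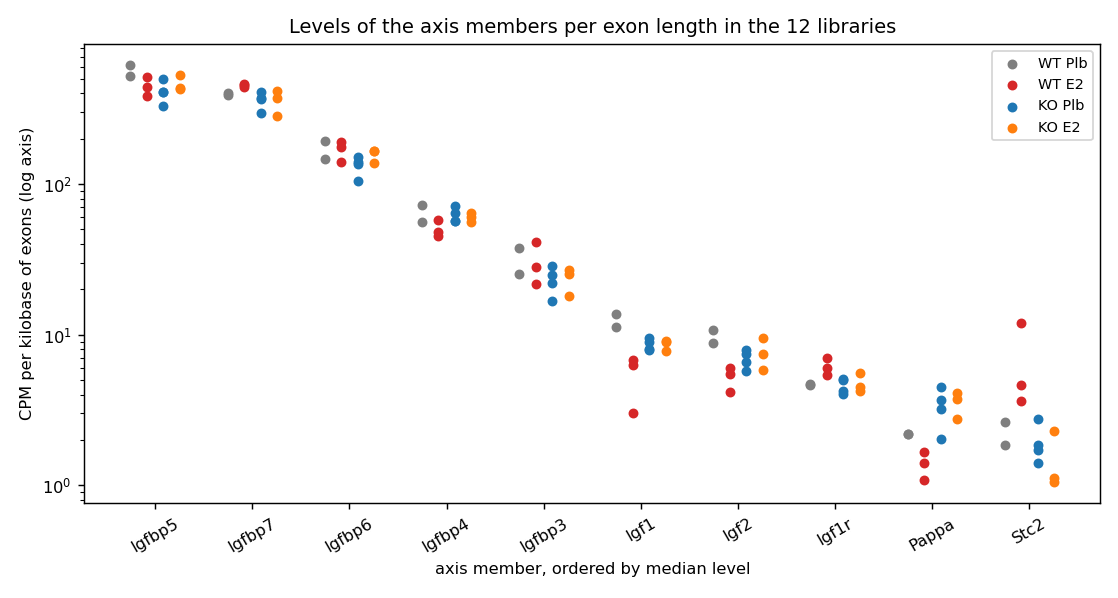
Level of each axis member in CPM per kilobase of exon (log axis), with 1 point per library coloured by group and members ordered by their median. Igfbp5 and Igfbp7 lie near 400, the ligands below 15, and the 3 Stc2 points of WT E2 lie above those of every other group.

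In WT mice, E2 went with lower levels of both ligands and of Pappa and with a higher level of Stc2, but with 2 and 3 libraries none of the 10 members passed the adjusted threshold of 0.05 in edgeR, where 0.458% of all genes did. An unadjusted p under 0.05 was reached by 6 members (Igf1, Igf1r, Igf2, Igfbp4, Pappa and Stc2), against 8.14% of all genes. Since the members were chosen with earlier results of these data known, the shares of all genes beside such counts are a description. The libraries of the 2 groups did not overlap for 3 members that were higher under E2 (Igf1r, Igfbp7 and Stc2; 13.2% of all genes) and for 4 that were lower (Igf1, Igf2, Igfbp5 and Pappa; 13.7% of all genes). DESeq2, on the same counts, called 2 members, Igf1 and Igf2, both lower, where it called 1.64% of the genes it tested. In ERalphaKO mice no difference with E2 was called for any of the 10 members. The count was 0 at the adjusted threshold in edgeR (0.00% of all genes) and in DESeq2 (0.00%), 0 at an unadjusted p under 0.05 (5.70% of all genes) and 0 without overlap (5.67%). The median log2 fold change with E2 over the 10 members was -0.20 in WT and 0.03 in ERalphaKO, and over all genes it was -0.00 and 0.00.

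Between genotypes under E2, Pappa was higher in ERalphaKO than in WT and was the only 1 of the 10 members called there, against 1.10% of all genes. An unadjusted p under 0.05 was reached by 6 members (Igf1, Igf1r, Igf2, Igfbp7, Pappa and Stc2; 11.5% of all genes). Igf1 and Pappa were higher without overlap (6.97% of all genes), Igfbp7 and Stc2 lower without overlap (8.94%). DESeq2 called Pappa and Stc2, where it called 3.06% of its genes. Under placebo, none of the 10 members was called in edgeR (0.0135% of all genes) or in DESeq2 (0.985%), and Igf2 and Igfbp5 had an unadjusted p under 0.05 (8.93% of all genes). No member was higher without overlap there (10.5% of all genes), and Igf1, Igf2 and Igfbp5 were lower without overlap in ERalphaKO (10.6%). The median log2 fold change of the members between genotypes was -0.29 under placebo and -0.03 under E2. The interaction, by which the E2 effect of ERalphaKO was set against that of WT, was called for no member in edgeR (0.0539% of all genes) or DESeq2 (0.644%), with 4 members at an unadjusted p under 0.05 (Igf1, Igf2, Igfbp5 and Stc2; 6.78% of all genes). These comparisons share libraries: WT placebo enters the E2 effect in WT and the genotype effect under placebo, and WT E2 enters the E2 effect in WT and the genotype effect under E2.

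**Figure D2:**
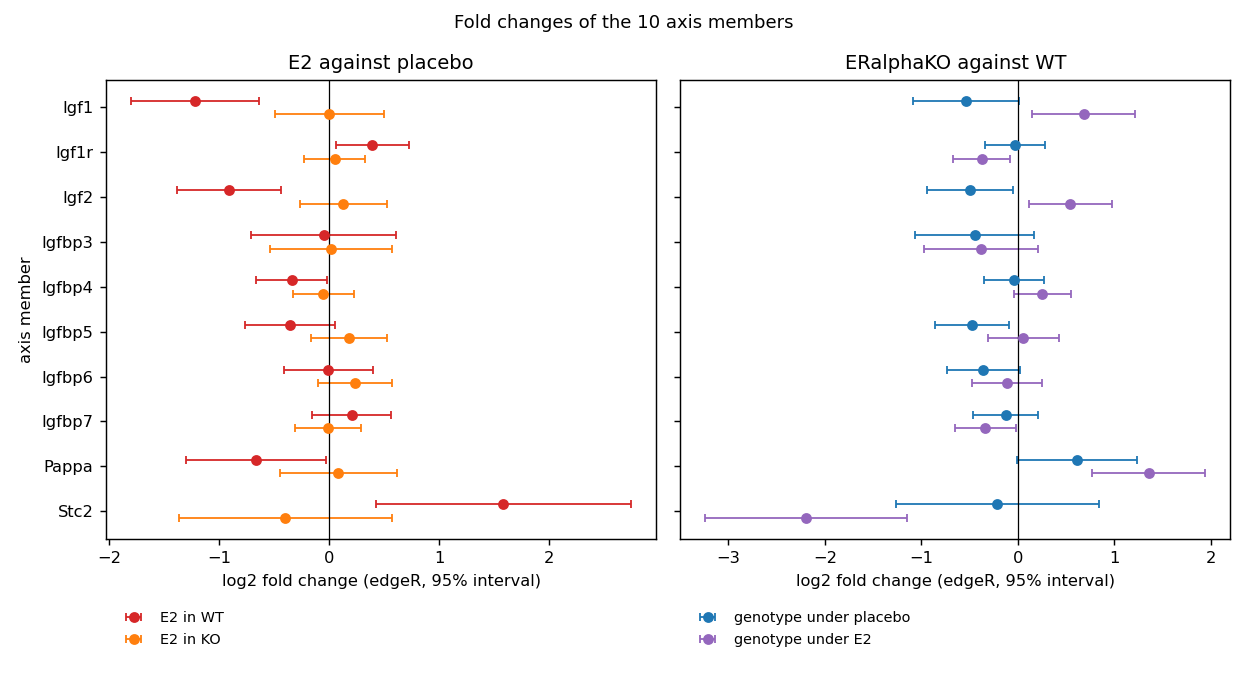
Log2 fold changes of the 10 members from edgeR with 95% intervals, E2 against placebo in each genotype on the left and ERalphaKO against WT under each treatment on the right. In ERalphaKO every interval of the E2 effect spans 0, whereas in WT those of Igf1, Igf2, Igfbp4 and Pappa lie below 0 and those of Igf1r and Stc2 above it.

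Igf1, the main growth hormone dependent ligand, stood at 111 and 137 CPM in the WT placebo libraries and at 67.6, 62.4 and 29.8 CPM under E2. All WT E2 libraries were thus below both WT placebo libraries, and replicate 3 was the lowest of the series. The log2 fold change was -1.22 ± 0.26 (SE), or 2.33-fold lower, with an adjusted p = 0.103 in edgeR. Without WT E2 replicate 3 the fold change was smaller, at -0.93, and its adjusted p = 0.0324 in edgeR passed the threshold. Of the 12 omissions of a library this was the only 1 in which Igf1 passed, with log2 fold changes from -1.43 to -0.93 over the 12. In ERalphaKO, Igf1 was 88.9, 93.9, 78.4 and 80.0 CPM with placebo and 89.1, 76.6 and 90.0 CPM with E2, so the groups overlapped fully. The group means were 85.3 ± 7.39 CPM (SD, n = 4) and 85.2 ± 7.47 CPM (SD, n = 3), and the 95% interval of the log2 fold change ran from -0.49 to 0.49. Both ERalphaKO groups lay between the WT groups. ERalphaKO against WT gave -0.54 ± 0.25 under placebo (adjusted p = 0.568 in edgeR) and 0.68 ± 0.24 under E2 (adjusted p = 0.289). The log2 fold change with E2 was 0.00027 in ERalphaKO and -1.22 in WT. Their difference, ERalphaKO minus WT, was 1.22 ± 0.35, with an unadjusted p = 0.00491 and an adjusted p = 0.466 in edgeR.

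Igf2, the ligand best known from fetal growth and an imprinted gene, was likewise highest in WT placebo and lowest in WT E2 by group mean. It was 50.4 and 61.6 CPM in WT placebo against 31.4, 34.1 and 23.8 CPM in WT E2, with no overlap. The log2 fold change was -0.91 ± 0.21 (adjusted p = 0.146 in edgeR). ERalphaKO libraries held 37.6, 45.4, 32.9 and 42.8 CPM with placebo and 33.2, 54.6 and 42.8 CPM with E2, which overlapped each other. The E2 effect differed between genotypes by 1.04 ± 0.28 (unadjusted p = 0.00345, adjusted p = 0.393 in edgeR). Counts of Igf2 carry an uncertainty of assignment, since 62.8% of its exonic bases in GENCODE M21 are shared with the same-strand gene Gm49394 and 98 bases with the antisense gene Igf2os.

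**Figure D3:**
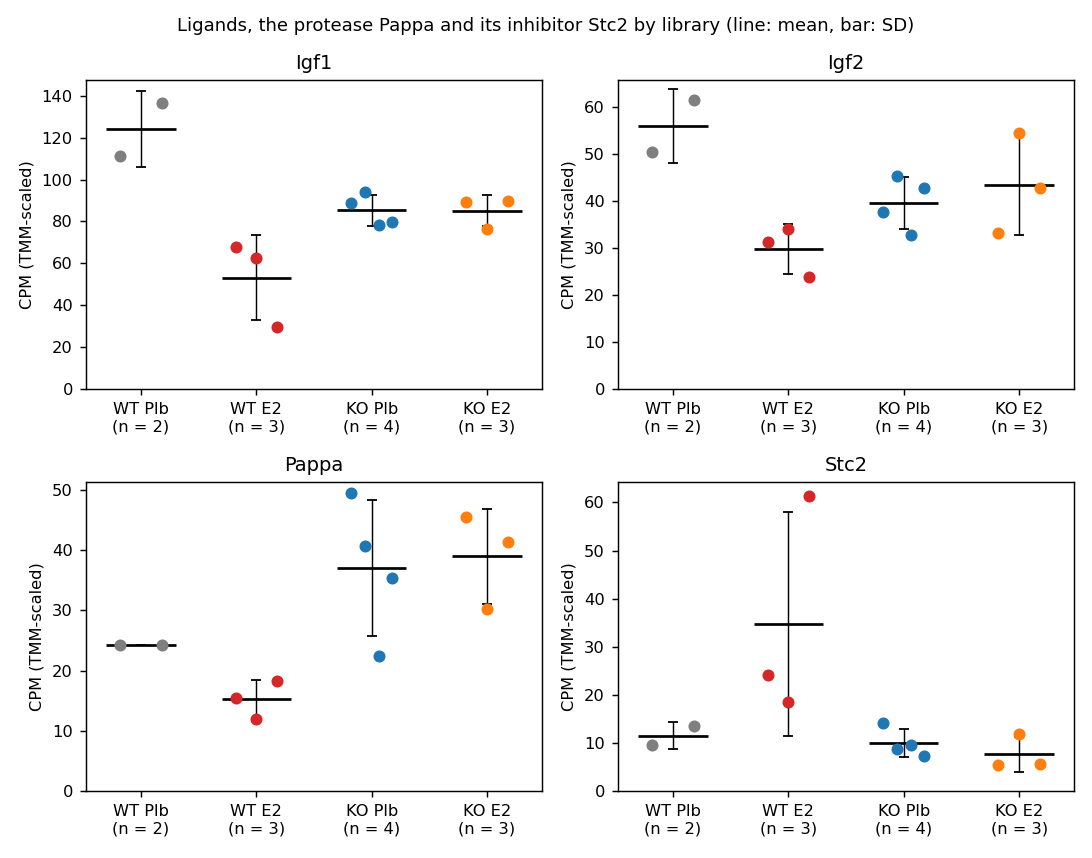
Levels of Igf1, Igf2, Pappa and Stc2 in CPM in each of the 12 libraries, with the group mean (line) and SD (bar). By group mean, Igf1 and Igf2 are lowest and Stc2 is highest in WT E2. The Igf2 points of WT E2 overlap those of both ERalphaKO groups. Pappa is lower in all 3 WT E2 libraries (11.96 to 18.3 CPM) than in any of the 7 ERalphaKO libraries (22.4 to 49.4 CPM).

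Marker levels of the tissue and of other cell types are set beside these values, with no test. Summed osteoblast and osteocyte markers (8 of 8 tested) were 5697 to 5758 CPM in WT placebo and 6478 to 10446 CPM in WT E2. Ibsp carried most of that gap, at 2189 and 2516 CPM against 4376, 3416 and 6169 CPM. Alpl (918 and 850 against 1367, 1033 and 1305 CPM) and Sost (149 and 95.9 against 362, 162 and 296 CPM) were also higher without overlap. Bglap, Bglap2, Dmp1, Phex and Sp7 overlapped. Macrophage markers (8 of 8 in the table tested) summed to 616 to 767 against 693 to 1119.5 CPM, which overlapped. Within that list C1qa, C1qb, C1qc, Mrc1 and Cd14 were higher in WT E2 without overlap. C1qa, for example, was 67.6 and 51.7 CPM against 118, 70.3 and 137 CPM. Csf1r, Cd68 and Cd163 overlapped. Summed fibrocartilage markers were 103295 to 113096 against 79055 to 95506 CPM, a sum made up mostly of Col1a1 and Col1a2. Within that list Col1a1, Col1a2, Acan and Fmod were lower in WT E2 without overlap. Prg4, the lubricin gene of the joint surface, lay the other way without overlap, at 165 and 130 CPM in WT placebo against 390, 291 and 347 CPM in WT E2. Col2a1, Sox9, Comp, Scx and Tnmd overlapped. The mean log2 CPM over a list overlapped between the groups for fibrocartilage, at 9.62 and 9.95 against 9.64, 9.55 and 9.77. It also overlapped for osteoblasts, at 9.03 and 8.85 against 9.39, 8.92 and 9.50. For macrophages it did not overlap, at 5.81 and 5.53 against 6.43, 5.85 and 6.48. For adipocytes it did not overlap either, at -0.792 and 2.60 against -0.796, -2.09 and -1.74. Over the 12 libraries the macrophage level gave r = -0.743 with Igf1 and r = -0.742 with Igf2. The endothelial level was close to that, at r = -0.674 and -0.698, and the osteoblast level gave r = -0.587 and -0.391. The adipocyte (0.554 and 0.369) and peripheral nerve (0.414 and 0.420) levels had a positive r with both ligands. Adipocyte markers (6 of 7 tested), low throughout, were 13.8 to 78.3 CPM in WT placebo and 2.68 to 9.43 CPM in WT E2. The part of osteoblasts, macrophages, endothelial cells and fibrocartilage cells in the ligand values was not tested. With the granulocyte marker level as a covariate, Igf1 was at -1.34 (adjusted p = 0.0414 in edgeR) and Igf2 at -1.04 (adjusted p = 0.00585), and with the adipocyte marker level Igf1 was at -1.06 (adjusted p = 0.566). In RNA from whole tissue, fewer cells of a type and less RNA per cell cannot be told apart.

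Igf1r, the receptor, was 79.1 and 77.9 CPM in WT placebo and 90.8, 118 and 100.4 CPM in WT E2, all 3 above the placebo libraries. The log2 fold change was 0.39 ± 0.15 (adjusted p = 0.519 in edgeR), opposite in sign to the ligands. In ERalphaKO it was 84.6, 67.8, 70.4 and 84.5 CPM with placebo and 92.8, 70.4 and 74.9 CPM with E2, which overlapped. Under E2, ERalphaKO against WT gave -0.37 ± 0.13 (adjusted p = 0.294), with ERalphaKO E2 replicate 1 inside the WT range. As a description, the sum of ligand CPM per kilobase over that of Igf1r was 4.26 and 5.29 in WT placebo and 2.28, 1.75 and 1.20 in WT E2. It was 3.09 to 4.31 in ERalphaKO placebo and 2.68 to 4.12 in ERalphaKO E2. Of the 7 ERalphaKO libraries, placebo replicate 2 lay within the WT placebo range and the others between the WT groups.

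Igfbp5, the binding protein of bone and connective tissue with the highest level here, was 3708 and 3135 CPM in WT placebo and 2654, 3077 and 2289 CPM in WT E2. It was 2979, 2441, 1963 and 2441 CPM in ERalphaKO placebo and 2564, 3156 and 2621 CPM in ERalphaKO E2. WT placebo was above WT E2 and above ERalphaKO placebo without overlap, by narrow margins. The log2 fold changes were -0.36 ± 0.18 for E2 in WT (adjusted p = 0.657 in edgeR) and -0.48 ± 0.17 for genotype under placebo (adjusted p = 0.463). Of the summed CPM per kilobase of the 5 binding proteins, Igfbp5 made up 46.3% ± 0.66 (SD, n = 2) in WT placebo, 38.7% ± 3.54 (n = 3) in WT E2, 41.2% ± 3.09 (n = 4) in ERalphaKO placebo and 43.7% ± 1.17 (n = 3) in ERalphaKO E2.

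Igfbp7, a secreted relative that binds IGF weakly, was 482 and 469 CPM in WT placebo and 553, 529 and 560 CPM in WT E2. Its log2 fold change was small, 0.20 ± 0.16 (adjusted p = 0.816 in edgeR), although the groups did not overlap. In ERalphaKO it was 490, 449, 358 and 445 CPM with placebo and 343, 504 and 451 CPM with E2. All ERalphaKO E2 libraries lay below those of WT E2, at -0.34 ± 0.14 (adjusted p = 0.401). Of its exonic bases, 85 (7.03%) overlap Polr2b on the opposite strand, and whether the counting used strand is not stated.

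Igfbp4, a main substrate of PAPP-A, was 318 and 246 CPM in WT placebo and 255, 199 and 213 CPM in WT E2, which overlapped. Its log2 fold change was -0.34 ± 0.15 (adjusted p = 0.586 in edgeR). ERalphaKO values were 283, 251, 313 and 252 CPM with placebo and 281, 267 and 245 CPM with E2, and lay within the WT placebo range except for the last. Igfbp3, the main carrier of IGF in blood, ranged from 52.5 to 130 CPM, and its groups overlapped in all 4 comparisons. In the library order used above it was 118 and 79.5 CPM in WT placebo and 130, 88.2 and 67.5 CPM in WT E2, with a fold change near 0 (-0.05 ± 0.30). Its ERalphaKO libraries held 52.5, 77.5, 68.7 and 89.8 CPM with placebo and 56.1, 78.8 and 83.8 CPM with E2. Igfbp6, which prefers IGF2, was 215 and 163 CPM in WT placebo, 213, 196 and 155 CPM in WT E2, 116, 169, 150 and 155 CPM in ERalphaKO placebo, and 183, 183 and 154 CPM in ERalphaKO E2. No member of this trio had an adjusted p under 0.5 in any of these 4 comparisons.

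Pappa, the protease, was 24.2 CPM in both WT placebo libraries and 15.5, 11.96 and 18.3 CPM in WT E2. In ERalphaKO it was 49.4, 40.6, 22.4 and 35.4 CPM with placebo and 45.4, 30.2 and 41.3 CPM with E2. Every ERalphaKO E2 library was above every WT E2 library. The means were 39.0 ± 7.89 CPM (SD, n = 3) and 15.2 ± 3.17 CPM (SD, n = 3), a log2 fold change of 1.36 ± 0.27, or 2.56-fold higher in ERalphaKO, with an adjusted p = 0.0395 in edgeR. Under placebo the difference was 0.61 ± 0.28 (adjusted p = 0.569), with ERalphaKO placebo replicate 3, the library rich in granulocyte markers, below WT placebo. E2 in WT gave -0.67 ± 0.29 (adjusted p = 0.590) and E2 in ERalphaKO 0.08 ± 0.24 (adjusted p = 1).

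The Pappa call under E2 lay close to the threshold. It passed without ERalphaKO placebo replicate 1 (adjusted p = 0.0352 in edgeR), ERalphaKO placebo replicate 3 (0.00792) or ERalphaKO E2 replicate 2 (0.0430), and was lost without any other library, whether WT placebo 1 or 2, WT E2 1, 2 or 3, ERalphaKO placebo 2 or 4, or ERalphaKO E2 1 or 3, with log2 fold changes of 1.21 to 1.51 over all 12 omissions. Without both granulocyte-rich libraries the adjusted p = 0.0293, whereas with the granulocyte marker level as a covariate it was 0.0535 at a log2 fold change of 1.37. Skeletal muscle markers (9 of 10 tested) were 159 to 852 CPM in WT E2 and 6.03 to 37.8 CPM in ERalphaKO E2, where Myh4 was at 0. With their level as a covariate the log2 fold change was 1.10 (adjusted p = 0.114 in edgeR). Summed osteoblast markers, with Ibsp the most abundant, were 6478 to 10446 CPM in WT E2 and 5662 to 6024 CPM in ERalphaKO E2. Within that list Ibsp, Alpl and Sost were higher in WT E2 without overlap. Bglap lay the other way without overlap, at 766, 538 and 657 CPM in WT E2 against 960, 909 and 822 CPM in ERalphaKO E2. Bglap2, Dmp1, Phex and Sp7 overlapped. The part of osteoblasts in the Pappa result was not tested.

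Stc2, the inhibitor of PAPP-A, was 9.56 and 13.5 CPM in WT placebo and 24.1, 18.6 and 61.4 CPM in WT E2, where replicate 3 was the highest library of the series. ERalphaKO libraries held 14.2, 8.89, 9.65 and 7.32 CPM with placebo and 5.42, 11.9 and 5.78 CPM with E2. The WT E2 libraries were above all other 9 libraries. ERalphaKO E2 against WT E2 gave -2.20 ± 0.47, or 4.58-fold lower, with an adjusted p = 0.0590 in edgeR and 8.05e-05 in DESeq2. E2 in WT gave 1.58 ± 0.53 (adjusted p = 0.415 in edgeR), and 0.89 (adjusted p = 0.816) without WT E2 replicate 3. Without that library the genotype difference under E2 was -1.49 (adjusted p = 0.139), and without WT E2 replicate 2 it was -2.49 (adjusted p = 0.0286). The E2 effect differed between genotypes by -1.98 ± 0.68 (unadjusted p = 0.0144, adjusted p = 0.586 in edgeR). Over the 12 libraries Stc2 rose with the mean log2 marker level of macrophages (r = 0.727), osteoblasts (r = 0.716) and fibrocartilage (r = 0.629). The part of these cells in the Stc2 values was not tested.

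Since Stc2 and Pappa lay in opposite directions in WT E2, their ratio in CPM per kilobase is given as a description, chosen after their values were seen. Stc2 per Pappa was 0.841 and 1.19 in WT placebo and 3.31, 3.32 and 7.15 in WT E2. It was 0.612, 0.466, 0.916 and 0.441 in ERalphaKO placebo and 0.254, 0.839 and 0.298 in ERalphaKO E2. Transcripts of the inhibitor thus exceeded those of the protease in all 3 WT E2 libraries and in WT placebo replicate 2, and in none of the 7 ERalphaKO libraries.

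The authors' deposited tables, which give each pair of groups by itself, set more members past their adjusted threshold. For WT E2 against WT placebo the authors' deposited table gave Igf1 at -1.10 ± 0.30 (adjusted p = 0.0232) and Igf2 at -0.87 ± 0.20 (adjusted p = 0.00249), with 1.75% of its genes under 0.05. For ERalphaKO placebo against WT placebo the authors' deposited table gave Igf1 at -0.53 ± 0.14 (adjusted p = 0.0114), with 1.82% of its genes under 0.05. For ERalphaKO E2 against WT E2 the authors' deposited table gave Pappa at 1.33 ± 0.22 (adjusted p = 1.5e-07) and Stc2 at -1.93 ± 0.40 (adjusted p = 0.000181), with 3.75% of its genes under 0.05. For ERalphaKO E2 against ERalphaKO placebo the authors' deposited table gave all 10 members an adjusted p = 0.999, with 0.0494% of its genes under 0.05.

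Of 53 further genes of the pathway in 6 lists, 44 were tested, and Adam12 and Socs2 were the only 2 called. For E2 in WT, 1 of 44 was called lower (0.0876% of all genes) and none higher (0.371%), with 9 at an unadjusted p under 0.05 (8.14% of all genes). For E2 in ERalphaKO, and between genotypes under placebo, none was called in edgeR (0.00% and 0.0135% of all genes) or DESeq2 (0.00% and 0.985%), with 1 and 9 at an unadjusted p under 0.05 (5.70% and 8.93%). Under E2, ERalphaKO had 1 of 44 higher (0.452% of all genes) and 1 lower (0.647%), with 9 at an unadjusted p under 0.05 (11.5%). The median log2 fold change over the 44 was -0.04 for E2 in WT, 0.03 for E2 in ERalphaKO, -0.05 for genotype under placebo and 0.00 for genotype under E2.

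Adam12, a metalloprotease that cleaves Igfbp3 and Igfbp5, was 167 and 185 CPM in WT placebo and 127, 104.5 and 93.6 CPM in WT E2. In ERalphaKO it was 160, 175, 148 and 167 CPM with placebo and 202, 183 and 192 CPM with E2. The WT E2 libraries were thus below all other 9. E2 in WT gave -0.70 ± 0.12 (adjusted p = 0.0437 in edgeR), and ERalphaKO E2 against WT E2 gave 0.83 ± 0.11, or 1.78-fold higher (adjusted p = 0.00583). The genotype call passed with each of the 12 libraries left out in turn. The E2 call passed without WT E2 replicate 1 or ERalphaKO placebo replicate 3 and was lost in the other 10 omissions, with fold changes from -0.83 to -0.61 over the 12. The log2 fold change with E2 was 0.24 in ERalphaKO and -0.70 in WT, a difference (ERalphaKO minus WT) of 0.95 ± 0.16 (adjusted p = 0.0801 in edgeR). Htra1, the most counted protease of that list, ranged from 912 to 1320 CPM and was not called.

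Socs2, which restrains growth hormone signalling to Igf1, was 58.1 and 66.3 CPM in WT placebo and 82.2, 70.1 and 90.8 CPM in WT E2. It was 53.9, 58.5, 45.7 and 48.8 CPM in ERalphaKO placebo and 55.1, 47.4 and 55.8 CPM in ERalphaKO E2. Every WT E2 library lay above every other library. ERalphaKO E2 against WT E2 gave -0.62 ± 0.12 (adjusted p = 0.0390 in edgeR), and E2 in WT gave 0.38 ± 0.13 (adjusted p = 0.459). The Socs2 call passed without WT E2 replicate 2, ERalphaKO placebo replicate 2 or ERalphaKO placebo replicate 3 and was lost in the other 9 omissions, with fold changes from -0.71 to -0.53 over the 12. Cish, another STAT5 target that restrains cytokine receptors, was named after its values were seen. It went the other way, at 4.52 and 5.202 CPM in WT placebo and 2.46, 2.59 and 1.89 CPM in WT E2, a log2 fold change of -1.07 ± 0.21 (adjusted p = 0.0667 in edgeR, 0.00463 in DESeq2). Jak2, the kinase of the growth hormone receptor and the most counted of the 6 genes tested in that list, stayed within 74.4 to 93.3 CPM. Of these 6, 4 had an unadjusted p under 0.05 in edgeR for E2 in WT (8.14% of all genes). They were Ghr, Stat5a and Socs2, higher, and Cish, lower. Under E2, 4 did so between genotypes (11.5%): Stat5a, Stat5b and Socs2, lower in ERalphaKO, and Cish, higher. Ghr, Stat5a and Stat5b were named after their values were seen, and none was called.

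**Figure D4:**
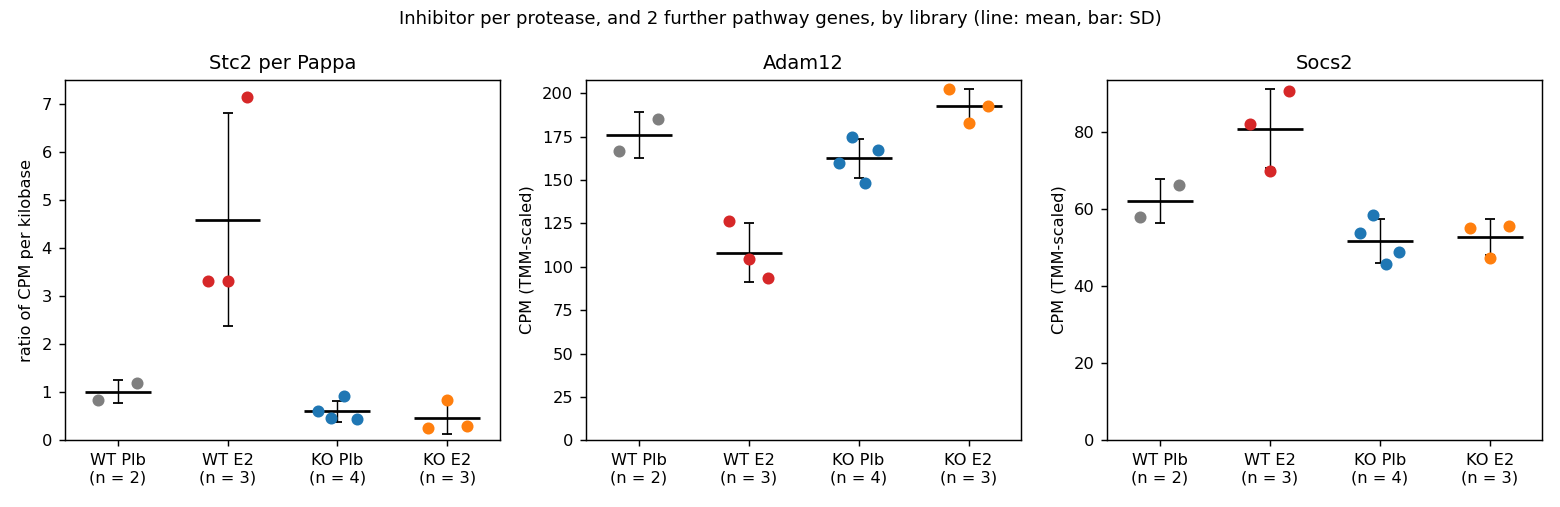
Stc2 per Pappa (ratio of CPM per kilobase), Adam12 and Socs2 (CPM) in each library, with the group mean (line) and SD (bar). In all 3 panels the WT E2 points lie apart from the other groups, higher for the ratio (3.31 to 7.15) and Socs2 and lower for Adam12.

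In the 4 other lists no gene was called in any comparison. Their most counted members were Igf2r, the receptor that clears IGF2 (180 to 277 CPM), Grb10, an adaptor that dampens the receptor (205 to 336 CPM), Akt1, a kinase downstream of it (211 to 260 CPM), and Igf2bp2, which binds Igf2 mRNA (1.49 to 3.15 CPM). Grb10 had log2 fold changes of -0.35 ± 0.14 with E2 in WT (adjusted p = 0.567 in edgeR) and -0.39 ± 0.14 for genotype under placebo (adjusted p = 0.457). Of the 18 genes of the PI3K, Akt and FoxO arm, 10 had positive and 8 negative fold changes with E2 in WT, with a median of 0.03.

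Genes whose log2 CPM followed a member most closely over the 12 libraries were found among 12430 candidates. These Pearson correlations describe libraries that share their groups, depth and admixed cells. Nearest to Igf1 were Atf4 (r = 0.941), a stress-response transcription factor, Matn4 (0.934), a cartilage matrix protein, Luzp2 (0.933), Traf3 (0.927) and Mdk (0.917), a heparin-binding growth factor. Nearest to Igf2 was Podn (0.943), a small leucine-rich proteoglycan. Nearest to Pappa was Kazn (0.941) and nearest to Stc2 was Ntn4 (0.959), a laminin-related protein of basement membranes. For the receptor the nearest was Rasa3 (0.850). For the binding proteins it was Pcdhb15 for Igfbp3 (0.930), Rfc2 for Igfbp4 (0.904), Efs for Igfbp5 (0.932), Tmem22 for Igfbp6 (0.900) and Plekhg5 for Igfbp7 (0.955). Among the members themselves, Igf1 and Igf2 gave r = 0.813, Igf1 and Stc2 r = -0.743, and Igfbp7 and Stc2 r = 0.739.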

How the data were processed

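Per the labels' protocols, polyadenylated RNA was sequenced as 100-base reads, and the submitters' processing notes name bcl2fastq 2.17, TopHat and the mm9 build. Not given in the sources used here are the TopHat version, the counting tool, its annotation and its strand setting. The authors deposited raw counts per gene symbol, which were analysed, and comparison tables with log2 fold changes, p-values and adjusted p-values, per the file headers, which are quoted as theirs. The deposited normalized table, a size-factor scaled signal per gene, was not used.

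All 12 libraries, with TMM (trimmed mean of M values) scaling, entered the quasi-likelihood test of edgeR 4.0.16 (R 4.3.3), with 1 mean per group and 8 residual degrees of freedom. Genes were kept by filterByExpr with a minimum count of 10. Adjusted p-values are Benjamini-Hochberg values over the 14832 genes of each contrast, threshold 0.05. SE is the absolute log2 fold change over the square root of F, and intervals are 95%. CPM use TMM library sizes, and CPM per kilobase divide by the union of GENCODE M21 exons, which may differ from the authors' gene models. Correlations used log2 CPM with a prior count of 2.

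DESeq2 1.42.0, another scaling (RLE), other filters, replicate numbers as a block, marker levels as covariates, only the 2 groups compared and omission of each library were alternatives. The omission of ERalphaKO placebo replicate 3 and ERalphaKO E2 replicate 1 together was chosen after seeing the data. The members, pathway lists and marker lists were chosen with earlier results of these data known. The rule for named genes was all members, pathway genes past the threshold, the most counted gene of each pathway list, and the nearest genes by correlation (5 for Igf1, 1 for each other member) among those with a mean of at least 1 CPM, leaving out predicted genes. Scripts were tested on simulated data. Libraries held 9.70e+06 to 2.88e+07 counts, and 1 count was worth 0.0366 to 0.105 CPM. Read counts are not molecules, since no molecular identifiers were used.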

Additional observations from a re-analysis of the deposited data

How the results depend on the processing

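Of the alternatives, RLE scaling kept the direction and the side of the threshold of every member, Adam12, Socs2 and Cish in all 5 comparisons. The number of members called for E2 in WT was 2 with DESeq2 (1.64% of all genes) and 2 with the granulocyte covariate (0.607%), Igf1 and Igf2 in both, and 0 to 1 over the 12 omissions of a library. For genotype under E2 it was 2 with DESeq2 (3.06% of all genes), 0 with the muscle covariate (0.647%), 0 with the adipocyte covariate (0.782%), 0 with only the 2 groups fitted (0.470%), and 0 to 1 over the omissions. The adjusted p of Pappa, 0.0395 as reported, was 0.114, 0.0646 and 0.0510 in those with 0 calls. It was 1 with the granulocyte covariate (1.37% of all genes), but that member was Igf2 (0.74, adjusted p = 0.0168), with Pappa at an adjusted p = 0.0535. For the interaction it was 1 with the granulocyte covariate (0.263% of all genes; Igf2, 1.07, adjusted p = 0.0373). With only 2 groups fitted Adam12 also missed the threshold under E2 (adjusted p = 0.0523). Of the 44 other pathway genes, E2 in WT called 2 with DESeq2 (Adam12 and Cish) instead of 1, and 0 with the block, the muscle or adipocyte covariate or only the 2 groups. Genotype under E2 called 1 instead of 2 with the block or any covariate, and 0 with only the 2 groups. The interaction called 2 instead of 0 with DESeq2 (Adam12 and Cish) and 1 with the granulocyte covariate (Adam12). The causes were not tested.

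Replicate numbers were checked for pairing: deviations of same-numbered libraries correlated between -0.33 and 0.50. Those of replicate 2 were all positive, from 0.21 to 0.47. In each of 3 pairs of groups with 3 shared numbers, 2 of 6 libraries correlated best with their own number. The labels state no pairing, and with so few libraries this check cannot tell whether same-numbered libraries share a litter or a day. With the number as a replicate block, 0 members were called for genotype under E2 (0.418% of all genes; Pappa adjusted p = 0.112), where the fit leaves 5 residual degrees of freedom. The block also turned the sign of Igfbp6 for E2 in WT (0.045), of Igf1 (-0.00892), Igfbp7 (0.000361) and Socs2 (-0.000312) for E2 in ERalphaKO, and of Igfbp4 for genotype under placebo (0.0096).

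The other reversals are given here and below with their log2 fold changes, and not all lay close to 0. For E2 in WT, Igfbp3 moved from -0.05 to 0.26 without WT placebo replicate 1. For E2 in ERalphaKO, Igf1 was -0.00112 without a filter, -0.00384 with the stricter filter and -0.036 with the granulocyte covariate. Igfbp3 was -0.029 with the granulocyte and -0.10 with the adipocyte covariate. With the muscle covariate Igf1r was -0.00944 and Pappa -0.14, and for genotype under E2 Igfbp5 was -0.11. Without ERalphaKO placebo replicate 3 and ERalphaKO E2 replicate 1, chosen after seeing the data, E2 in ERalphaKO gave -0.071 for Igf1, -0.12 for Igf1r, 0.048 for Igfbp7, -0.22 for Pappa and -0.058 for Socs2, and genotype under placebo gave 0.019 for Igf1r.

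Omitting each library in turn, E2 in WT ranged from -0.34 to 0.26 for Igfbp3 and from -0.20 to 0.20 for Igfbp6. E2 in ERalphaKO ranged from -0.041 to 0.070 for Igf1, -0.080 to 0.13 for Igf1r, -0.062 to 0.29 for Igf2, -0.11 to 0.17 for Igfbp3, -0.10 to 0.016 for Igfbp4, -0.13 to 0.13 for Igfbp7, -0.096 to 0.25 for Pappa and -0.025 to 0.099 for Socs2. Genotype under placebo ranged from -0.080 to 0.025 for Igf1r, -0.21 to 0.16 for Igfbp4 and -0.44 to 0.061 for Stc2, genotype under E2 from -0.045 to 0.17 for Igfbp5, and the interaction from -0.24 to 0.35 for Igfbp3. Where an omission leaves WT placebo with 1 library, that library is taken to vary like the other groups. Among the 10 members Stc2 had the fewest counts, 90 in its lowest library, and Cish lay lower still, at 1.89 to 5.202 CPM.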
